A study of Homo sapiens with 36 samples.

Results

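The MYC, MAX and MXD network was followed here as 9 named genes, MYC, MAX, MXD1, MXD3, MXD4, MXI1, MNT, MLX and MGA, out of 35460 genes for which transcript levels could be summed. All 9 were found by symbol and all 9 were measured in both tables. Bulk RNA came from 2 cell lines of human acute myeloid leukaemia, MOLM-13 and MONO-MAC-6, which carry a KMT2A-MLLT3 fusion and are labelled wild type. Each line was treated for 72 h with DMSO, the solvent, or with A9, a PROTAC, which is a compound that recruits a ubiquitin ligase to its target proteins so that they are degraded. The design text names IKK2 and NR4A1 as the targets of A9, whereas the title names IKK1 and NR4A1. A9 was given at 0.125 µM in MOLM-13 and at 0.25 µM in MONO-MAC-6, and each line has a table of its own, so a difference between lines cannot be told apart from one of dose or of table. Each of the 4 groups held 9 libraries, and the 3 libraries that share the first number of their label were averaged to 1 sample, which gave 3 samples a group. In GENCODE 29, on GRCh38, MYC lies on chromosome 8, MAX on chromosome 14 at 65006174 to 65102695 on the minus strand, MXD1 on chromosome 2 at 69897688 to 69942945 on the plus strand, MXD3 on chromosome 5 at 177301461 to 177312757 on the minus strand and MXD4 on chromosome 4 at 2247432 to 2262294 on the minus strand. MXI1 lies on chromosome 10 at 110207605 to 110287365 on the plus strand, MNT on chromosome 17 at 2384060 to 2401118 on the minus strand, MLX on chromosome 17 at 42567068 to 42573239 on the plus strand and MGA on chromosome 15 at 41621224 to 41773081 on the plus strand. The labels do not say that these samples came from separate cultures, so the p-values measure only the spread between these samples, which may be technical.

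MYC is a transcription factor that drives ribosome production, metabolism and cell division, and leukaemia cells of the myeloid lineage often depend on it. MYC binds DNA only as a dimer with MAX, at the E-box sequence, and MAX also pairs with the repressors MXD1, MXD3, MXD4, MXI1 and MNT, which occupy the same sites and recruit the SIN3 and histone deacetylase corepressor. MGA pairs with MAX as well and brings in a Polycomb complex, while MLX pairs with some MXD proteins, with MNT and with the glucose-sensing factors MLXIP (MondoA) and MLXIPL (ChREBP). MXD1 is known to increase as myeloid cells differentiate, a setting in which MYC declines.

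The E-box, CACGTG, is the site through which these proteins could act on the network's own genes, so the members' promoters were searched for it. Promoter windows of 300 bases, from 250 before to 50 after a start of the gene, came from RefSeq (GRCh38.p14) and held 13 windows of 8 members. These RefSeq starts are not always the GENCODE gene bounds given above. The MXD1 window, chr2:69914859-69915158, lies inside those bounds. MYC is not in that table. Because CACGTG is its own reverse complement, 1 search covers both strands. It occurred once each in the windows of MXD4, MNT and MLX and in no window of MAX, MXD1, MXD3, MXI1 or MGA, and it occurred in 2548 of all 35116 windows (7.26%). The stretches that hold it are shown with the E-box in capitals and up to 30 bases on each side. The MXD4 stretch lies on the minus strand at chr4:2262312-2262359, with the E-box starting at -238 from the RefSeq start of its window. Positions for MNT and MLX are counted in the same way. The RefSeq starts used for MXD4, MNT and MLX differ from their GENCODE bounds. The MNT stretch lies on the minus strand at chr17:2401218-2401283, with the E-box at -193. The MLX stretch lies on the plus strand at chr17:42567020-42567085, with the E-box at -50. A match describes these letters only and shows no binding.
MXD4: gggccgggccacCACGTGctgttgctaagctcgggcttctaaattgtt
MNT: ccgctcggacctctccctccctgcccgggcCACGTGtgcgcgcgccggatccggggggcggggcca
MLX: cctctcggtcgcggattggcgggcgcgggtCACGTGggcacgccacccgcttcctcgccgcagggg

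Of 13 myeloid markers, 10 or 11 reached a mean of 1 TPM in each group, where TPM is a level corrected for transcript length, with a total that is equal for all libraries. ANPEP (CD13) was under 0.1 TPM in MOLM-13. The summed markers ran from 854 to 937 TPM in MOLM-13 DMSO and from 1047 to 1200 TPM in MOLM-13 A9. They ran from 4358 to 5241 TPM in MONO-MAC-6 DMSO and from 9167 to 9404 TPM in MONO-MAC-6 A9. Of 15 markers of other cell types, 3 or 4 reached 1 TPM in a group, the T cell marker CD3E, the B cell marker MS4A1 and the endothelial marker CDH5 were under 0.1 TPM in all 4 groups, and their sum was 19.7 to 33.5 TPM with DMSO and 18.3 to 35.6 TPM with A9 in MOLM-13. In MONO-MAC-6 that sum was 63.4 to 145 TPM with DMSO and 209 to 232 TPM with A9, without overlap. In bulk RNA, fewer cells that express a gene and less of its RNA per cell cannot be told apart.

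One sample in each line stood apart across the network by its low values. Sample 3 of the MOLM-13 A9 group was the lowest of the 6 samples of its line for 8 of the 9 members, all but MXD3, for which it was the highest. Sample 1 of the MONO-MAC-6 DMSO group was the lowest of its line for 7 of the 9, all but MXD3 and MXD4. Both samples also had lower values for genes with long transcripts in general. In MONO-MAC-6 DMSO sample 1, the 1212 genes with transcripts over 4000 bases had a median deviation of -0.74 from the line's mean on the log2(TPM + 1) scale, against 0.19 for the 1057 genes under 1000 bases. In MOLM-13 A9 sample 3 the same medians were -0.41 and 0.11. MGA, whose transcripts average 6884 bases, deviated by -1.55 and -1.11 in these 2 samples, and the corresponding values of MYC, at 2146 bases, were -0.71 and -0.74. The genes of 2000 to 4000 bases had medians of -0.44 and -0.25 there, and MXD4, also in this class, deviated by -0.02 and -0.21. MAX, at 1128 bases, deviated by -0.64 and -0.24, against medians of -0.09 and -0.06 for 1000 to 2000 bases. How far transcript length accounts for the members' values was not tested. At the other end, sample 1 of the MOLM-13 DMSO group was the highest of its line for 6 of the 9 members. Its medians were 0.36 for the genes over 4000 bases and -0.10 for those under 1000 bases. The A9 differences are therefore also given without the 2 low samples, and with each sample's trend on transcript length removed.

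**Figure D1:**
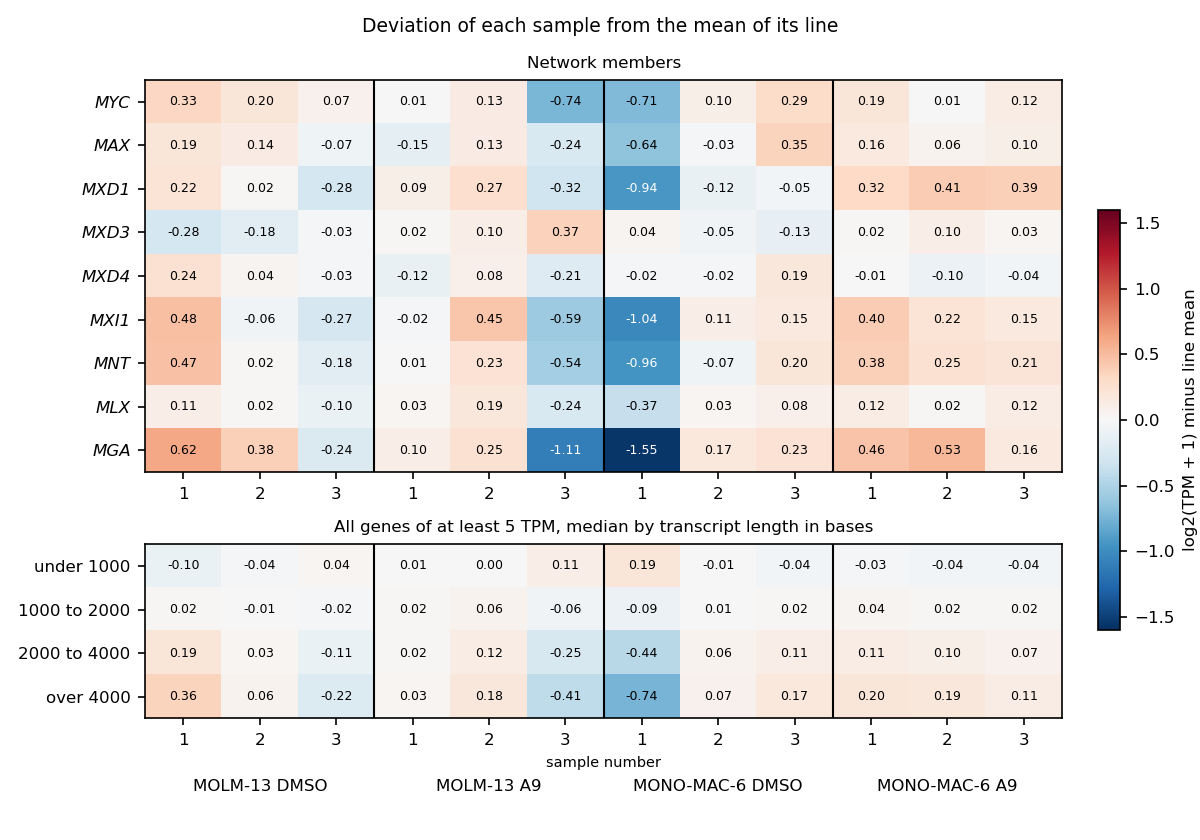
Deviation of each sample from the mean of the 6 samples of its line, in log2(TPM + 1), for the 9 members (upper block) and as the median over all genes of at least 5 TPM in 4 classes of transcript length (lower block). Sample 3 of MOLM-13 A9 and sample 1 of MONO-MAC-6 DMSO are the 2 columns with the lowest values for most members, and in both the median of the genes over 4000 bases is below 0.

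MYC was the most abundant member in all 4 groups, and MXD1 or MGA the least. In MOLM-13 DMSO, MYC averaged 279 ± 25.2 TPM (SD, n = 3) and was exceeded by 383 of the 11400 genes at or above 1 TPM. MLX (52.0 ± 3.91 TPM) and MAX (44.9 ± 4.26 TPM) came next, and their samples overlapped. MXD4 followed at 25.1 ± 2.59 TPM and lay above all samples of MXD3 (18.3 ± 1.71 TPM). MXD3, MNT (16.3 ± 4.12 TPM) and MXI1 (14.5 ± 4.29 TPM) overlapped, as did MGA (5.55 ± 1.86 TPM) and MXD1 (3.98 ± 0.843 TPM) below them. MYC alone thus stood above all other members by more than their spread. In MONO-MAC-6 DMSO the order was MYC (196 ± 64.4 TPM), MAX (75.9 ± 25.4 TPM), MLX (57.3 ± 9.43 TPM), MXD4 (22.0 ± 1.93 TPM), MXD3 (11.4 ± 0.742 TPM), MNT (10.5 ± 4.26 TPM), MXI1 (8.14 ± 3.59 TPM), MGA (6.65 ± 4.06 TPM) and MXD1 (5.43 ± 1.96 TPM). There MYC lay above all samples of MAX, MAX and MLX overlapped, MXD4 lay apart from its neighbours on both sides, and each neighbouring pair from MXD3 down to MXD1 overlapped.

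**Figure D2:**
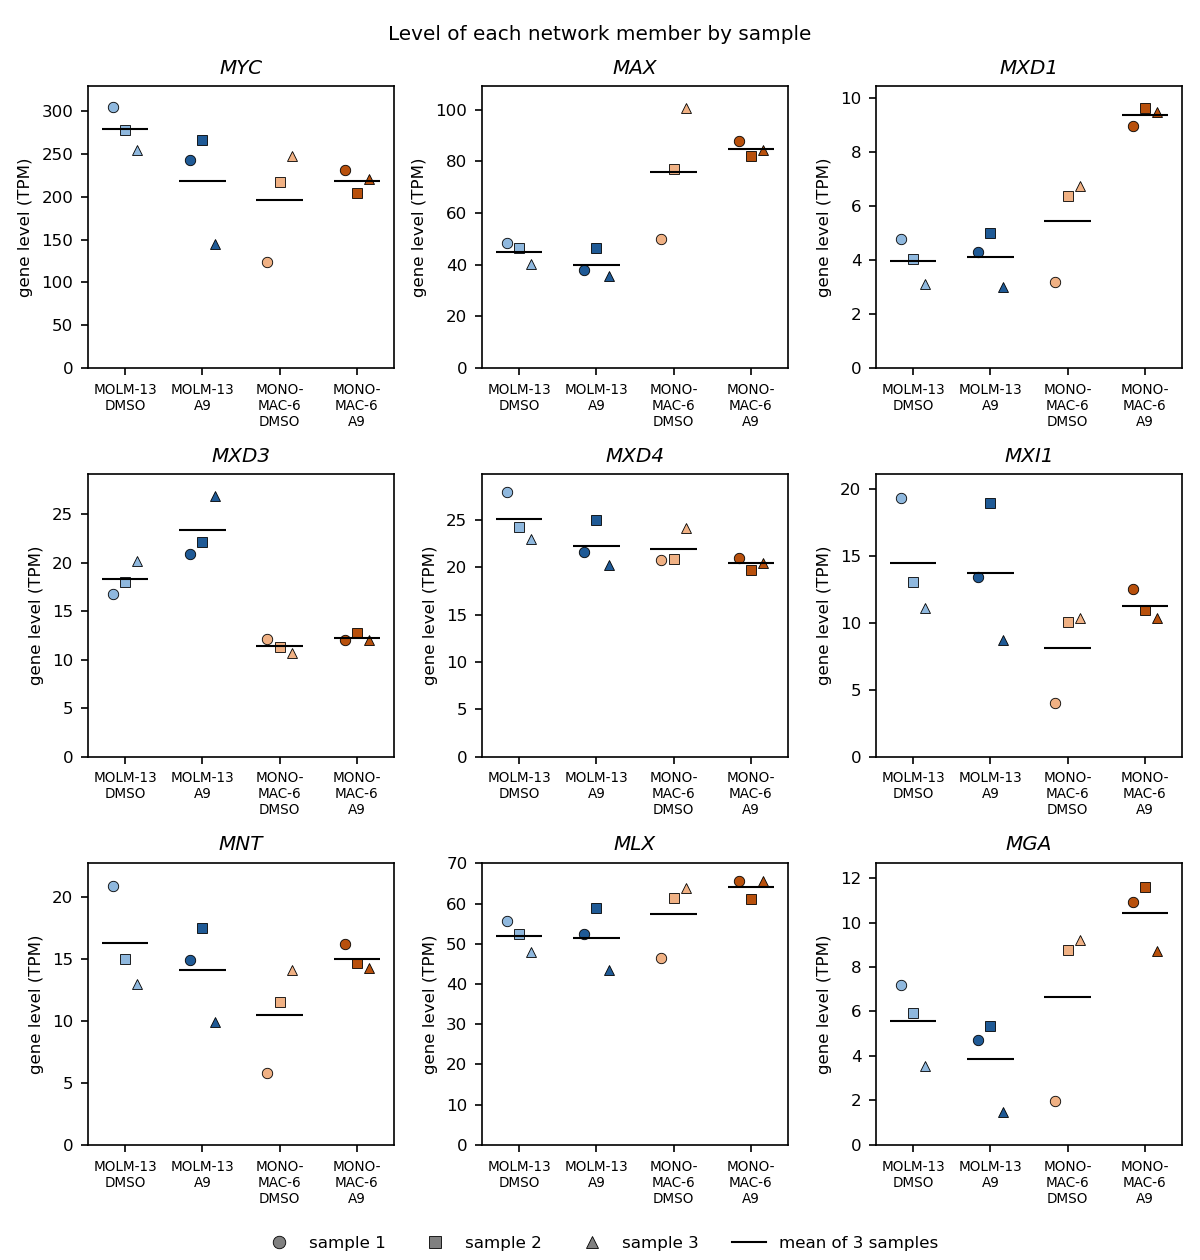
Level of each member in TPM (vertical axes from 0, a different range in each panel) in the 3 samples of each group, with the mean as a line. MXD1 in MONO-MAC-6 A9, at 8.97 to 9.62 TPM, lies above all DMSO samples of that line, and MXD3 in MOLM-13 A9, at 20.9 to 26.9 TPM, above all DMSO samples of MOLM-13.

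A9 against DMSO was tested in each line with limma on log2(TPM + 1), with p-values adjusted by Benjamini-Hochberg over all genes whose group mean reached 1 TPM in at least 1 group, and a gene was called at an adjusted p under 0.05. Differences are on this log2 scale, which understates the change of genes with few TPM. No member was called in MOLM-13, where 0.121% of 11596 genes were called, and none was called in MONO-MAC-6, where 3.36% of 12869 genes were. Without DMSO sample 1 the latter share was 24.8%, and it was 0.459% to 1.63% without 1 of the other 5 samples of MONO-MAC-6. At an unadjusted p under 0.05, limma gave 1 member in MOLM-13 (MXD3) and 1 in MONO-MAC-6 (MXD1), against 7.89% and 20.5% of all genes tested. The members' median difference was -0.17 in MOLM-13, beside -0.05 over all genes, and 0.21 in MONO-MAC-6, beside 0.16 over all genes. The estimate was above 0 for 2 of 9 members in MOLM-13 and for 8 of 9 in MONO-MAC-6, while 38.8% and 70.5% of all genes tested were above 0. These results rest on the first number of the label as the sample. When libraries were averaged by the second number instead, so that each value held libraries of all 3 first numbers, limma called 6 of 9 members in MOLM-13 (46.9% of all genes) and 8 of 9 in MONO-MAC-6 (67.6% of all genes).

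MYC, the activator of the network, did not pass the test in either line. In MOLM-13 the DMSO samples 1 to 3 measured 305, 278 and 254 TPM and the A9 samples 244, 266 and 145 TPM. The 2 lowest values were A9 samples, but A9 sample 2 lay above DMSO sample 3, so the groups overlapped. The difference was -0.40 (95% interval -0.95 to 0.15, limma adjusted p = 0.779), and without A9 sample 3 it was -0.13. In MONO-MAC-6 the DMSO samples measured 124, 217 and 248 TPM and the A9 samples 231, 204 and 221 TPM. The A9 values lay inside the range of the DMSO values. The difference was 0.21 (interval -0.39 to 0.82, limma adjusted p = 0.603), and without DMSO sample 1 it was -0.08.

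MAX, the partner that MYC and its antagonists share, also overlapped between treatments. In MOLM-13 it measured 48.2, 46.4 and 40.1 TPM with DMSO and 37.99, 46.3 and 35.6 TPM with A9, a difference of -0.17 (interval -0.47 to 0.13, limma adjusted p = 0.855). Its MONO-MAC-6 levels were 49.9, 77.2 and 101 TPM with DMSO and 88.0, 82.2 and 84.3 TPM with A9. The DMSO samples of MONO-MAC-6 spanned a wider range than any other group of MAX, and all A9 samples fell inside it. The difference was 0.21 (interval -0.37 to 0.79, limma adjusted p = 0.588), and it was -0.06 without DMSO sample 1.

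Among the repressors of the MXD family, MXD1 had the largest separation in MONO-MAC-6. MXD1, which is linked to the exit from division during differentiation, measured 3.19, 6.37 and 6.75 TPM with DMSO and 8.97, 9.62 and 9.48 TPM with A9 in that line. All A9 samples lay above all DMSO samples, also above the 2 higher ones. The means were 5.43 ± 1.96 and 9.36 ± 0.341 TPM, a difference of 0.74 (interval 0.14 to 1.34, limma adjusted p = 0.180), so MXD1 was not called. It was called without DMSO sample 1, with a smaller difference of 0.45 and a limma adjusted p of 0.00460, beside 24.8% of all genes. MXD1 was also called with the length trend removed, with a difference of 0.44 and a limma adjusted p of 0.0217, beside 9.29% of all genes. It was the 1 member of 9 called in each of these 2 settings. In MOLM-13, MXD1 measured 4.80, 4.04 and 3.11 TPM with DMSO and 4.31, 5.00 and 2.99 TPM with A9. Those groups overlapped, with a difference of 0.03 (interval -0.46 to 0.52, limma adjusted p = 0.980). The separation in MONO-MAC-6 has a background: 37.9% of all genes tested in that line, 4876 of them, had A9 and DMSO samples that did not overlap.

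MXD3, a repressor best known from dividing cells, was the 1 member whose samples separated in MOLM-13. It measured 16.8, 17.998 and 20.1 TPM with DMSO and 20.9, 22.1 and 26.9 TPM with A9. All A9 samples lay above all DMSO samples, with a gap under 1 TPM between the closest pair, and 15.0% of all genes tested in MOLM-13 had samples that did not overlap. The difference was 0.33 (interval 0.02 to 0.63, limma adjusted p = 0.572), and MXD3 was not called. Without A9 sample 3, its highest value, the difference was 0.23. In MONO-MAC-6, MXD3 measured 12.1, 11.3 and 10.7 TPM with DMSO and 11.97, 12.7 and 12.04 TPM with A9, which overlapped (difference 0.10, interval -0.17 to 0.37, limma adjusted p = 0.586). Median-ratio scaling of the samples turned the sign of that estimate to -0.05.

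MXD4 and MXI1, the other MXD repressors, were not called in either line. MXD4 measured 28.0, 24.3 and 23.0 TPM with DMSO and 21.6, 25.0 and 20.2 TPM with A9 in MOLM-13, and 20.8, 20.9 and 24.2 TPM against 21.0, 19.7 and 20.5 TPM in MONO-MAC-6. Its groups overlapped in both lines, with differences of -0.17 (interval -0.45 to 0.12) and -0.10 (interval -0.36 to 0.16). MXI1, a MAX partner known as a candidate tumour suppressor, measured 19.3, 13.05 and 11.1 TPM with DMSO and 13.4, 18.9 and 8.73 TPM with A9 in MOLM-13, a difference of -0.10 (interval -0.84 to 0.64) whose sign turned without DMSO sample 1 or without A9 sample 3. In MONO-MAC-6, MXI1 measured 3.999, 10.1 and 10.4 TPM with DMSO and 12.5, 11.0 and 10.4 TPM with A9. The A9 samples lay above the DMSO samples, but the closest pair differed by less than 0.1 TPM, and the difference of 0.52 (interval -0.28 to 1.31, limma adjusted p = 0.392) was 0.13 without DMSO sample 1.

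MNT, the broadly expressed MAX partner that opposes MYC in growing cells, was close to MXI1 in its pattern over these samples. In MONO-MAC-6 it measured 5.80, 11.5 and 14.1 TPM with DMSO and 16.2, 14.7 and 14.2 TPM with A9. The A9 samples lay above the DMSO samples, with the closest pair less than 0.1 TPM apart. The difference was 0.55 (interval -0.16 to 1.27, limma adjusted p = 0.330), and 0.22 without DMSO sample 1. In MOLM-13, MNT measured 20.9, 15.0 and 12.95 TPM with DMSO and 14.9, 17.5 and 9.88 TPM with A9, which overlapped (difference -0.20, interval -0.80 to 0.40). Without DMSO sample 1 that difference was -0.02, and without A9 sample 3 it was 0.016. MXD1, MXI1 and MNT were the 3 members whose samples separated in MONO-MAC-6, all 3 higher with A9. That is 3 of 9 members, beside the 37.9% of all genes tested whose samples did not overlap in this line.

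MLX, the partner of the Mondo factors, was not called in either line, and its intervals included 0. It measured 55.7, 52.4 and 47.9 TPM with DMSO and 52.5, 58.8 and 43.4 TPM with A9 in MOLM-13 (difference -0.02, interval -0.32 to 0.28). It measured 46.5, 61.5 and 64.0 TPM with DMSO and 65.5, 61.1 and 65.7 TPM with A9 in MONO-MAC-6 (difference 0.17, interval -0.15 to 0.50). Both pairs of groups overlapped.

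MGA, the scaffold that joins MAX to the Polycomb complex PRC1.6, had the widest intervals. It measured 7.18, 5.94 and 3.53 TPM with DMSO and 4.74, 5.35 and 1.48 TPM with A9 in MOLM-13, and 1.96, 8.78 and 9.20 TPM with DMSO and 10.9, 11.6 and 8.73 TPM with A9 in MONO-MAC-6. The groups overlapped in both lines, and the lowest value of each line came from the sample that stood apart. The differences were -0.50 (interval -1.49 to 0.48, limma adjusted p = 0.869) and 0.77 (interval -0.40 to 1.93, limma adjusted p = 0.387), and they were -0.08 and 0.18 without those samples.

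The length trend changed several of these estimates, though no call other than that of MXD1 in MONO-MAC-6. With it removed, the A9 differences in MOLM-13 were -0.35 for MYC, -0.38 for MGA, -0.12 for MNT, -0.02 for MXI1, -0.06 for MXD4 and 0.32 for MXD3. In MONO-MAC-6 they were 0.07 for MYC, 0.18 for MAX, 0.44 for MGA, 0.35 for MNT, 0.32 for MXI1 and -0.34 for MXD4. The estimate of MYC in MONO-MAC-6 was thus closer to 0, and that of MXD4 in the same line farther from it, than without this step. Without the sample that stood apart, the MOLM-13 differences of MXD4 and MLX were -0.10 and 0.10, and those of MONO-MAC-6 were -0.13 and 0.03.

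**Figure D3:**
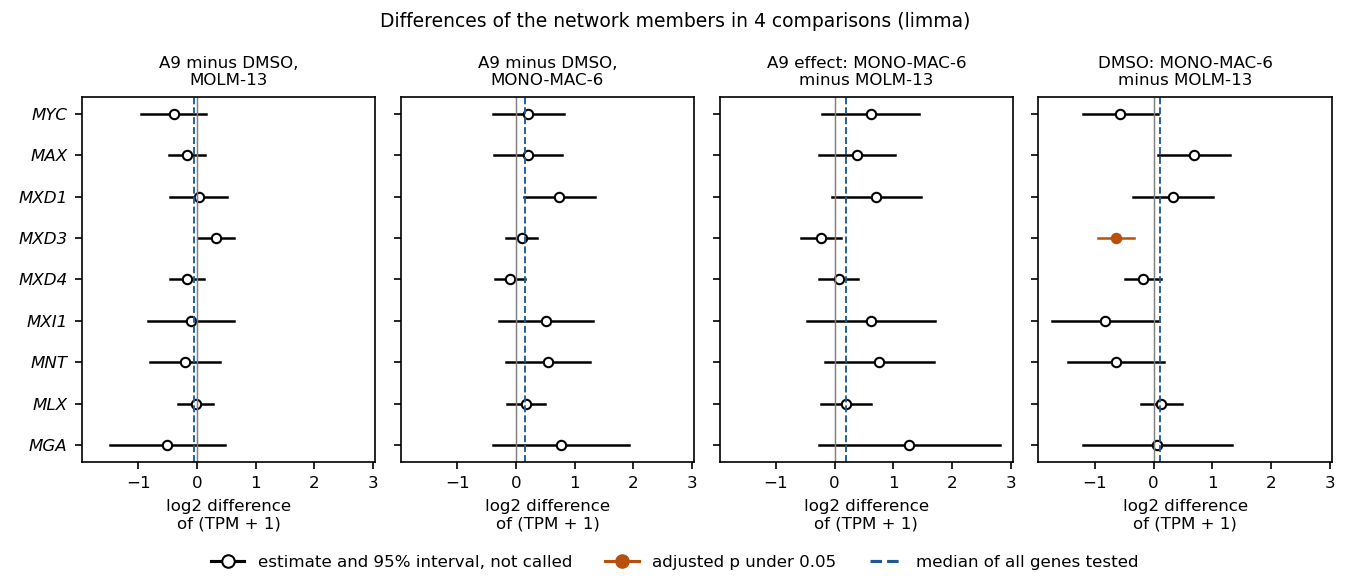
Differences of log2(TPM + 1) with 95% intervals from limma for the 9 members in 4 comparisons, with the median of all genes tested as a dashed line. Filled points mark an adjusted p under 0.05. MXD3 in the comparison of the lines, at -0.64, is the 1 filled point among 36.

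An interaction term over all 12 samples asked whether the A9 difference was unequal between MOLM-13 and MONO-MAC-6. No member was called by limma, none had an unadjusted p under 0.05, and 2.99% of 13408 genes were called. The members' median difference of the A9 effect, MONO-MAC-6 minus MOLM-13, was 0.61, beside 0.20 over all genes. The largest estimate was that of MGA, 1.27 (interval -0.27 to 2.81, limma adjusted p = 0.350), followed by MNT with 0.76 (interval -0.17 to 1.69), MXD1 with 0.71 (interval -0.04 to 1.46), MXI1 with 0.62 (interval -0.47 to 1.70) and MYC with 0.61 (interval -0.22 to 1.44). MXD3 was the 1 member with an estimate below 0, at -0.23 (interval -0.57 to 0.11). With the length trend removed, the estimates of MGA, MNT, MXD1, MXI1 and MYC were 0.81, 0.47, 0.29, 0.33 and 0.41, and no member was called.

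The ratio of MYC to its 5 antagonists (MXD1, MXD3, MXD4, MXI1 and MNT, summed in TPM) describes the balance of activator and repressor transcripts within a sample. In MOLM-13 the ratio was 3.39, 3.74 and 3.62 with DMSO and 3.24, 3.00 and 2.11 with A9. All A9 samples were lower, with means of 3.58 ± 0.174 and 2.78 ± 0.596. In MONO-MAC-6 it was 2.70, 3.5997 and 3.75 with DMSO and 3.27, 3.01 and 3.32 with A9, so the A9 values lay inside the DMSO range. The antagonists' sum itself was 78.2 ± 10.3 TPM with DMSO and 77.5 ± 10.1 TPM with A9 in MOLM-13, and 57.4 ± 10.4 and 68.3 ± 2.10 TPM in MONO-MAC-6. MYC to MAX was 6.32, 5.99 and 6.34 with DMSO and 6.41, 5.75 and 4.08 with A9 in MOLM-13. It was 2.48, 2.81 and 2.46 with DMSO and 2.63, 2.48 and 2.62 with A9 in MONO-MAC-6, so every MOLM-13 sample had a higher ratio of MYC to MAX than every MONO-MAC-6 sample. These ratios were chosen from the members and are given without a test.

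**Figure D4:**
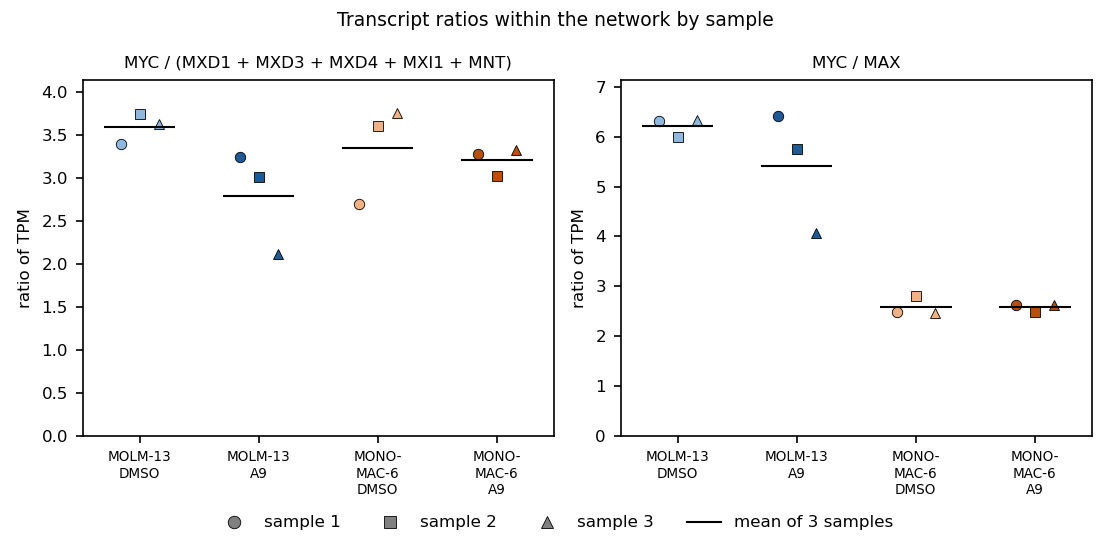
Ratio of MYC to the summed TPM of 5 antagonists (left) and of MYC to MAX (right) in each sample, with the mean of 3 samples as a line and vertical axes from 0. MYC to MAX is 4.08 to 6.41 in MOLM-13 and 2.46 to 2.81 in MONO-MAC-6.

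In DMSO alone the 2 lines differed in 48.8% of 12920 genes, and of the members MXD3 was called. MXD3 measured 16.8 to 20.1 TPM in MOLM-13 and 10.7 to 12.1 TPM in MONO-MAC-6, and was lower in MONO-MAC-6 by -0.64 (interval -0.94 to -0.34, limma adjusted p = 0.00606). It was called without each of the 6 samples in turn, with limma adjusted p-values of 0.00338 to 0.0352. MAX was higher in MONO-MAC-6 in all samples, by 0.69 (interval 0.08 to 1.31, limma adjusted p = 0.0635), and was called without MONO-MAC-6 DMSO sample 1 (0.96, limma adjusted p = 0.00215) but not with the length trend removed (0.44, limma adjusted p = 0.144). MXD1 and MLX were also called without that sample, with 0.61 and 0.27 (limma adjusted p = 0.0244 and 0.0382). Without it 4 of 9 members were called, beside 61.8% of all genes. MYC was lower in MONO-MAC-6, at -0.56 (interval -1.19 to 0.07, limma adjusted p = 0.122), as was MXI1, at -0.82 (interval -1.73 to 0.09, limma adjusted p = 0.120), without passing the test. Both, and MNT, were called as lower in MONO-MAC-6 with median-ratio scaling (MYC -0.64, MXI1 -0.89, MNT -0.71) and with the length trend removed (MYC -0.70, MXI1 -0.89, MNT -0.70). Each of these settings called 5 of 9 members, beside 54.2% and 61.7% of all genes. In the DMSO samples, MAX was higher and MYC, MXD3 and MXI1 lower in MONO-MAC-6 with no overlap, and 59.0% of all genes tested did not overlap. MNT (-0.64), MXD4 (-0.18), MXD1 (0.33), MLX (0.13) and MGA (0.07) overlapped between the lines.

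The transcripts behind each member show which isoforms the gene values rest on. MYC was carried by MYC-202 (2351 bases), with 64.1 ± 1.34% of its TPM in MOLM-13 DMSO and 63.0 ± 3.33% in MONO-MAC-6 DMSO, and by MYC-205 (2150 bases), with 24.9 ± 3.41% and 25.0 ± 1.37%. With A9 the share of MYC-202 was 66.7 ± 2.92% and 60.6 ± 1.39%. Both transcripts code for protein, and no transcript of MYC is annotated otherwise. MAX was different: MAX-209, a retained-intron transcript of 327 bases that holds no annotated protein, had the highest mean share of MAX in 3 of the 4 groups, with 37.1 ± 2.23% in MOLM-13 DMSO, 35.0 ± 4.43% in MOLM-13 A9 and 39.2 ± 3.00% in MONO-MAC-6 A9. In MONO-MAC-6 DMSO it held 29.6 ± 11.9%, and the protein-coding MAX-204 held 30.6 ± 13.8%. In MONO-MAC-6 DMSO, MAX-209 measured 8.89, 22.7 and 41.9 TPM, against 37.5, 30.5 and 32.0 TPM with A9, so the wide range of MAX in that group sits largely in this short transcript. MAX-204 measured 22.9, 20.4 and 19.4 TPM with DMSO and 19.6, 19.1 and 17.1 TPM with A9 in the same line, a narrow range.

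MXD1 rested on MXD1-201, a protein-coding transcript of 5587 bases, with 73.7 ± 7.97% of the gene in MONO-MAC-6 DMSO and 72.7 ± 4.17% with A9. MXD1-201 measured 2.09, 5.19 and 5.00 TPM with DMSO and 6.29, 7.45 and 6.67 TPM with A9 in that line, and 3.06, 3.11 and 2.02 TPM against 3.47, 3.86 and 2.59 TPM in MOLM-13. The separation of MXD1 in MONO-MAC-6 was thus present in its leading transcript (difference 0.68 with a standard error of 0.29, limma adjusted p = 0.311). The protein-coding MXD3-203 carried MXD3. In MOLM-13 it measured 8.96, 10.9 and 12.7 TPM with DMSO and 12.8, 14.6 and 17.4 TPM with A9. These samples again did not overlap (0.43, standard error 0.17, limma adjusted p = 0.882). In neither line was the share of all transcripts without overlap determined. MXD4-201 held 79.5% to 86.0% of MXD4 and MLX-203 held 51.8% to 56.3% of MLX, as group means. MXI1 was split between MXI1-201 and MXI1-202, and MNT between MNT-201 and the retained-intron MNT-205.

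Tested one by one, none of the 35 member transcripts was called in MOLM-13, where 0.0112% of 35581 transcripts were, and none of 43 in MONO-MAC-6, where 0.437% of 42329 were. At an unadjusted p under 0.05, limma gave 2 of the 35 (5.71%) and 5 of the 43 (11.6%), beside 5.46% and 16.6% of all transcripts tested. One of these was MYC-208, a coding transcript of 567 bases, with 3.44, 3.20 and 10.4 TPM in MONO-MAC-6 DMSO and 21.6, 15.5 and 14.8 TPM with A9 (difference 1.599, standard error 0.41, limma adjusted p = 0.191). All A9 samples lay above all DMSO samples for this minor transcript of MYC. The share of all transcripts whose samples did not overlap was not determined. MYC-208 was called without DMSO sample 3, beside 128 of 42590 transcripts. That sample held its highest DMSO value, 10.4 TPM, the one nearest to the A9 values. MYC-208 was chosen after its values were seen. Transcripts that are not annotated as protein-coding held 39.5 ± 1.52% of MAX and 45.1 ± 8.09% of MNT in MOLM-13 DMSO, against 0.898 ± 0.165% of MXI1. In MONO-MAC-6 they held 57.6 ± 6.53% of MNT with DMSO and 65.3 ± 3.06% with A9. The gene values of MAX and MNT therefore count RNA that is not annotated to code for the proteins.

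**Figure D5:**
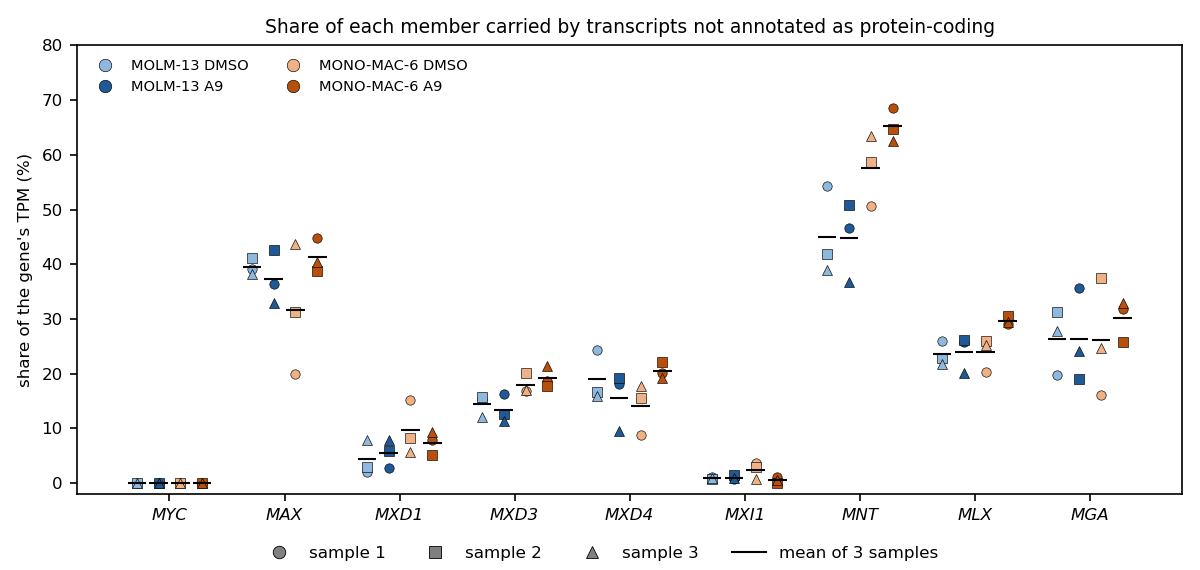
Share of each member's TPM, in percent, that is assigned to transcripts not annotated as protein-coding, for the 3 samples of each group with the mean as a line. MNT and MAX have the highest shares, and MYC has 0 because all 8 of its transcripts are annotated as coding.

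The wider pathway was described by 8 gene lists around the network, with counts and medians and no test of the list. In MOLM-13, limma called 0 of the 103 genes of these lists that were tested with A9. The myeloid marker LYZ, lysozyme, did rise in this line, from 133 ± 10.4 to 327 ± 14.0 TPM (1.29, limma adjusted p = 0.00517). LYZ was called in 5 of the 6 comparisons that left out 1 sample, all but the one without A9 sample 1. Over the 6 its limma adjusted p-values were 0.0131 to 0.0661. The counts at an unadjusted p under 0.05 were 3 of 38 MYC-activated targets, 2 of 6 genes that MYC represses, 1 of 4 MondoA and MLX targets, 1 of 13 SIN3 and histone deacetylase corepressor genes, and 0 of 17 MYC cofactors, 14 MYC protein turnover genes, 10 PRC1.6 partners and 2 paralogues and Mondo partners. Of all genes tested in this line, 7.89% had such a p by limma. The 38 MYC-activated targets had a median of -0.12, beside -0.05 over all genes. FBL, a nucleolar methyltransferase and the target with the smallest p, measured 552 ± 25.2 TPM with DMSO and 491 ± 6.43 TPM with A9 (-0.17, limma adjusted p = 0.488). CDKN1A, the cell cycle inhibitor p21 and a gene that MYC represses, measured 108 ± 5.26 and 82.9 ± 6.20 TPM (-0.38, limma adjusted p = 0.173). TXNIP, the classical MondoA target that limits glucose uptake, measured 39.1 ± 3.85 and 24.2 ± 2.58 TPM (-0.67, limma adjusted p = 0.133), with all A9 samples below all DMSO samples. Samples did not overlap for 15.0% of all genes tested in this line. None of the 3 passed the test over all genes. With the length trend removed, TXNIP (-0.59, limma adjusted p = 0.0105) and CDKN1A (-0.34, limma adjusted p = 0.0497) were called, beside 1.53% of all genes. Neither was called in any of the 6 comparisons that left out 1 sample. The smallest p-values of 4 other lists belonged to MYCL, ACTL6A, SAP30 and RNF2.

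In MONO-MAC-6, 3 of the 106 genes tested from the 8 lists rose with A9 (2.83%, beside 3.36% of all genes) and none fell. MLXIPL, the ChREBP partner of MLX, measured 18.2, 24.1 and 24.3 TPM with DMSO and 36.8, 44.5 and 39.4 TPM with A9. The groups were well apart, and the difference was 0.83 (interval 0.48 to 1.19, limma adjusted p = 0.0369). KLF10, a transcription factor gene in the MondoA and MLX list, measured 2.40, 4.002 and 3.73 TPM with DMSO and 10.3, 11.3 and 9.92 TPM with A9 (1.41, interval 0.98 to 1.84, limma adjusted p = 0.0129). CDKN1C, the cell cycle inhibitor p57, went from 0.691 ± 0.0584 to 2.74 ± 0.696 TPM (1.13, interval 0.74 to 1.52, limma adjusted p = 0.0203), a low level in both groups. It was tested only because its A9 mean reached 1 TPM, so the filter favoured its place among the genes that rose. With no filter on low values CDKN1C was also called. Of the 5 MondoA and MLX targets, 4 had an unadjusted p under 0.05 by limma in this line, beside 20.5% of all genes tested, and 1 was called. TXNIP measured 32.9, 50.4 and 49.9 TPM with DMSO here. With A9 it measured 46.9, 50.3 and 45.4 TPM, inside the DMSO range. Myeloid markers moved with the 3 called genes: 4 of 11 tested rose with A9 in MONO-MAC-6, among them CD14 (1.77), ANPEP (1.32) and LYZ (1.17), and their part in these results was not tested. Of the 15 markers of other cell types 4 were tested, all 4 with an unadjusted p under 0.05, and KRT18, a keratin, fell from 10.6 ± 0.998 to 5.75 ± 0.3003 TPM (-0.78, limma adjusted p = 0.0262). These calls were not kept in all comparisons that left out 1 sample. MLXIPL was called in 1 of the 6 comparisons that left out 1 sample, namely without DMSO sample 1, with limma adjusted p-values of 0.000741 to 0.206 over the 6. KLF10 was called in 3 of 6, each of the 3 without a DMSO sample, with 7.43e-05 to 0.0969, and CDKN1C in 2 of 6, without DMSO sample 1 or A9 sample 1, with 0.00219 to 0.131. Over the 6 the differences lay between 0.70 and 0.90 for MLXIPL and between 1.01 and 1.28 for CDKN1C. None of the 37 MYC-activated targets tested was called in MONO-MAC-6, with 6 at an unadjusted p under 0.05 by limma and a median of 0.06 beside 0.16 over all genes. SHMT2, a mitochondrial serine enzyme and the target with the smallest p, measured 198 ± 24.8 TPM with DMSO and 143 ± 3.51 TPM with A9 (-0.46, limma adjusted p = 0.0772). It was called without DMSO sample 1 and with the length trend removed. Among 17 cofactors, 14 turnover genes, 13 corepressor genes and 10 PRC1.6 partners, limma called 0, with 3, 1, 1 and 1 at an unadjusted p under 0.05. The genes with the smallest p there were SUPT5H (0.33), USP36 (0.63), SIN3B (0.55) and RING1 (0.28), all higher with A9 in every sample and none called. Samples did not overlap for 37.9% of all genes tested in this line. Each of these genes was called without DMSO sample 1, beside 24.8% of all genes. With the length trend removed, USP36 (0.51, limma adjusted p = 0.0219) and SIN3B (0.34, limma adjusted p = 0.0494) were called, beside 9.29% of all genes, and SUPT5H and RING1 were not.

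The A9 effect differed between the lines for 5 of the 107 genes tested from these lists (4.67%, beside 2.99% of all genes), all with a larger difference in MONO-MAC-6. They were KLF10 (1.56, limma adjusted p = 0.00344), CDKN1C (1.18, limma adjusted p = 0.00515), MLXIPL (0.87, limma adjusted p = 0.0258), ARRDC4 (0.50, limma adjusted p = 0.0385) and RRP12 (0.45, limma adjusted p = 0.0463). KLF10 measured 6.56 ± 0.723 TPM with DMSO and 5.81 ± 0.668 TPM with A9 in MOLM-13. MLXIPL was near 0 in MOLM-13, at 0.102 ± 0.0373 TPM with DMSO and 0.0768 ± 0.0391 TPM with A9, and CDKN1C was at 0.0592 ± 0.0722 and 0.0220 ± 0.0216 TPM, so for these 2 genes the difference between lines is set by their level in MONO-MAC-6. ARRDC4 was also low in MOLM-13, at 0.557 ± 0.0670 TPM with DMSO and 0.564 ± 0.0526 TPM with A9. CDKN1C and ARRDC4 reached a mean of 1 TPM, and so were tested, only through MONO-MAC-6 A9, where they were highest. Both were also called with no filter on low values. KLF10 and CDKN1C were called in all 12 comparisons that left out a sample. MLXIPL was called in 4 of the 12, ARRDC4 in 2 and RRP12 in 1, and with the length trend removed ARRDC4 (0.12) and RRP12 (0.09) were not called. Of 38 MYC-activated targets, RRP12, a ribosome assembly factor, was the 1 called.

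Between the lines in DMSO, 16 of the 38 MYC-activated targets tested were lower and 7 higher in MONO-MAC-6, with a median of -0.39 beside 0.12 over all genes. Of all genes tested, 18.4% were lower and 30.4% higher. The rule for named genes gave the 3 highest and the 3 lowest called, and those named here were called under all alternatives run. NOP56 (0.69), SRM (0.64) and ODC1 (0.63), which serve snoRNP assembly and polyamine synthesis, were higher in MONO-MAC-6, and CCND2 (-2.36), RRP12 (-1.69) and EIF4A1 (-0.99) were lower. Of 7 genes that MYC represses, 3 were higher, among them NDRG1 (2.03) and CDKN2B (1.33), and 3 were lower, among them CDKN1A (-3.84) and GADD45A (-1.67). CDKN1A measured 108 ± 5.26 TPM in MOLM-13 and 6.64 ± 0.841 TPM in MONO-MAC-6. MLXIPL was higher in MONO-MAC-6 by 4.39, at 22.2 ± 3.46 against 0.102 ± 0.0373 TPM. Of the MondoA and MLX targets, ARRDC3 was higher (1.67) and ARRDC2 lower (-1.39). Among the cofactors 4 were higher, RUVBL1 (1.01), SUPT5H (0.92) and PAF1 (0.75) among them, and EP400 was lower (-1.23). Turnover genes were higher in 3 of 14 cases, the corepressor list gave 2 higher and 4 lower of 13, BRMS1 (-0.71) among the latter, and the PRC1.6 list gave 4 higher and 2 lower of 10, among them TFDP2 (1.14) and PCGF6 (-0.64).

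The genes most like MYC and MXD1 across samples were found by Pearson's r of log2(TPM + 1) over the 12 samples, after each line was centred on its own mean, among 9132 genes of at least 5 TPM. The samples share their line, their treatment and the trend on transcript length, so r is given as a description. HSPA9 (0.990), ELAC2, PPM1G and BTN3A1 (each 0.984) were nearest to MYC. SLC36A1 (0.996), DENND4B and ERLIN1 (both 0.995) and PLBD2 (0.994) were nearest to MXD1. Of the members, MGA (0.933), MLX (0.895) and MNT (0.895) were nearest to MYC, and MXD3 had an r of -0.716 with it. MNT (0.927) and MXI1 (0.909) were nearest to MXD1, and MYC had an r of 0.726 with MXD1. Many genes shared these patterns: 545 genes had a higher r with MYC than MGA did.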

How the data were processed

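Poly(A) RNA of 36 libraries was sequenced as paired reads, with 25000000 reads a sample stated in the labels' protocols. The deposited values are TPM per transcript, made by the authors with kallisto on GRCh38, per the submitters' processing notes, which also name limma. The versions and the annotation are not given in the sources used here. Every library sums to 1000000 TPM, so its depth is unknown. Of 207175 transcripts, 162526 (78.4%, holding 89.8% to 91.4% of TPM) matched GENCODE 29, among them 86 of 90 transcripts of the members, and were summed by gene. The unmatched transcripts were not used. Libraries that share the first number were averaged. Genes whose mean reached 1 TPM in any group compared were tested on log2(TPM + 1) with limma 3.58.1 in R 4.3.3 (mean-variance trend, robust), with Benjamini-Hochberg adjustment over all genes. A9 was compared with DMSO within each line, the lines were compared in DMSO, and the interaction used all 12 samples. The method was tested on simulated data. Figures were made with Python 3.11.15 and matplotlib 3.10.9.

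The members and lists were chosen with earlier results of these data known. All 9 members are named. From each other list the 3 called genes with the highest and the 3 with the lowest difference were eligible, or the 1 gene with the smallest p where none was called; 1 gene that this rule gave is not reported here. The 4 genes most like MYC and most like MXD1, and transcripts with at least 20% of a member, were also named. With 3 samples on each side, the smallest p of an exact permutation test is 0.1. A9 acts on proteins, so the RNA of its targets does not check the labels.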

Additional observations from a re-analysis of the deposited data

Results flagged for a closer look

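No member of the network was called by limma for a difference of its A9 effect between the lines. Among the genes and markers named beside it, 7 were called, each with a larger A9 difference in MONO-MAC-6 than in MOLM-13 on the log2(TPM + 1) scale. They were CD14 with a difference between the effects of 1.73, KLF10 with 1.56, ANPEP with 1.28, CDKN1C with 1.18, MLXIPL with 0.87, ARRDC4 with 0.50 and RRP12 with 0.45. In MOLM-13 the means of CD14, ANPEP, CDKN1C, MLXIPL and ARRDC4 were under 1 TPM with DMSO and with A9, so this scale understates their changes there. With the length trend removed ARRDC4 was at 0.12 and RRP12 at 0.09, and neither was called. MLXIPL was called in 4, ARRDC4 in 2 and RRP12 in 1 of the 12 comparisons that left out a sample, and the other 4 genes in all 12. Line and dose cannot be told apart in these values. Groups of 3 samples were not screened for a single extreme sample.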

How the results depend on the processing

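The unit of replication moved the counts most. With libraries averaged by second number, limma called 6 members for A9 in MOLM-13, 8 in MONO-MAC-6, 8 for the interaction and 9 between the lines, beside 5440, 8703, 8505 and 11052 of all genes. With each library as its own sample it called 2, 4, 5 and 6 members, beside 1742, 5585, 5621 and 9240 genes. With the length trend removed it called 1 member in MONO-MAC-6 and 5 between the lines, beside 1195 and 7973 genes, and 177 genes in MOLM-13 and 742 for the interaction. Median-ratio scaling called 5 members between the lines, beside 6982 genes, and 48 genes in MOLM-13. With no filter the 4 counts of genes were 4, 254, 384 and 7218.

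Leaving out 1 sample gave 0 to 1 members in MONO-MAC-6 and 1 to 4 between the lines, the highest both without MONO-MAC-6 DMSO sample 1, and 0 to 1 member transcripts in MONO-MAC-6, the highest without DMSO sample 3. All genes called ranged from 2 to 8 in MOLM-13, 59 to 3204 in MONO-MAC-6, 197 to 548 for the interaction and 4642 to 8061 between the lines. Differences that changed sign, over the samples left out, ran in MOLM-13 from -0.10 to 0.19 for MXD1, -0.35 to 0.17 for MXI1, -0.37 to 0.016 for MNT, -0.12 to 0.10 for MLX and -0.27 to 0.013 for ACTL6A. They ran in MONO-MAC-6 from -0.085 to 0.41 for MYC and -0.06 to 0.44 for MAX, for the interaction from -0.011 to 0.15 for MXD4, and between the lines from -0.24 to 0.65 for MGA. Median-ratio scaling turned MLX in MOLM-13 to 0.028, MXD3 in MONO-MAC-6 to -0.051, MXD4 and MLX in the interaction to -0.14 and -0.021 and MGA between the lines to -0.011. Removing the length trend turned MLX in MOLM-13 to 0.021, MXD4 and MLX in the interaction to -0.29 and -0.0022 and MLX between the lines to -0.014. The cause was not tested. Of the calls, 74.6% were higher in MONO-MAC-6, against 62.6% and 53.2% with the scaling and the length trend removed; for the interaction 64.3%, 56.5% and 45.6%; between the lines 62.2%, 55.7% and 50.3%. The scaling moved the median of all genes in MONO-MAC-6 from 0.16 to 0.02 and in the interaction from 0.20 to 0.02.

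The replicate block, with the first number as a block, called 0 members in each comparison, so that MXD3 between the lines had a limma adjusted p of 0.0672, and called 87, 94, 207 and 4106 genes. It also ended the calls of MLXIPL (0.0888), CDKN1C (0.0888) and KLF10 (0.0633) for A9 in MONO-MAC-6 and of MLXIPL (0.0536), ARRDC4 (0.155) and RRP12 (0.155) for the interaction. TXNIP for A9 in MOLM-13, not called without the block, had a limma adjusted p of 0.0283 with it. Samples with the same number did not deviate together throughout (r over genes of 0.514, -0.055 and 0.770 in MOLM-13 and -0.074, 0.177 and -0.229 in MONO-MAC-6), so the numbers were not taken to pair the samples. With 3 samples a group and unknown depth, no counting interval could be given for members at low TPM.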
